A study of Drosophila melanogaster with 10 samples.

Results

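The libraries numbered replicate 3 were compared with those numbered replicate 4 in mRNA-seq of *Drosophila melanogaster* larvae. They were chosen by the number in the sample name, 5 libraries of each number, 1 per strain, which takes in all 10 libraries of the series. Each library was made from RNA of whole females of the last larval instar, with no treatment named. The strains are labelled w, 51B, 51B/+, V966M and V966M/+. *AGO2* encodes the Argonaute of the small interfering RNA pathway, 51B is a null allele of it, V966M is an allele that impairs its slicing activity, and w carries neither. The sources used here give no larval age in hours, no number of animals per library and no account of what the numbers stand for. Libraries of 1 number may share a day, a culture or a sequencing run, or none of these, and p-values measure the spread between these libraries, which may be technical. In what follows, "higher" means higher in replicate 3 than in replicate 4, and lists of 5 values are in the order w, 51B, 51B/+, V966M, V966M/+.

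A whole larva in its last instar changes quickly. While it feeds, its midgut secretes proteases, lysozymes and the mucins of the peritrophic lining, and its fat body fills with storage proteins. Pulses of the steroid ecdysone then switch on early response genes such as *br*, the salivary glands turn on glue genes, feeding stops and the larva leaves the food. In whole animals, fewer cells of a type and less RNA per cell cannot be told apart.

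Replicate 3 was sequenced more deeply in all 5 strains, with 38930502 to 60886803 counts per library against 22337432 to 26129296, so depth and number cannot be told apart. *AGO2* (FBgn0087035), on 3L from 15554113 to 15561042 in dm6, stood at 229, 105, 3.85, 236 and 249 CPM (counts scaled to a common library size, with TMM factors) in replicate 3 and at 152, 99.7, 2.84, 163 and 194 CPM in replicate 4. Its levels go against the labels of 2 strains, since both libraries labelled 51B/+ were nearly without *AGO2* RNA and both labelled 51B were not. The labels used here are those of the strain field. Sample titles repeat the allele name in the libraries labelled 51B/+ and V966M/+ and give it once in those labelled 51B and V966M. Which libraries are heterozygous is therefore uncertain for both alleles. The pairs compared here are the same under either reading. *AGO2* itself was higher in 5 of 5 strains (log2 fold change 0.40 ± 0.10 SE, adjusted p = 0.0761, edgeR quasi-likelihood test). The library labelled 51B/+ replicate 3 stood apart in testis genes, whose summed level was 111.9 CPM there and 23.3 to 31.8 CPM in the other 9 libraries, and counts of lists are therefore given again without it. Of the RNAs that mark males, *lncRNA:roX2* was at most 2.53 CPM in any library, *lncRNA:roX1* was at 10.5 to 60.5 CPM and highest in 51B/+ replicate 3, and the summed level of Y-linked genes was 3.41 to 10.8 CPM.

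With strain as a block, 654 of 13551 genes tested (4.83%) were higher and 664 (4.9%) were lower at an adjusted p under 0.1. Of these, 576 (4.25% of the genes tested) were higher in each of the 5 strains and 635 (4.69%) were lower in each. Called or not, 1522 of the genes tested were higher in each strain and 1409 were lower in each. Genes called over 5 pairs tend to share their sign, so this agreement is no separate support. The differences were mostly small, with a median absolute log2 fold change of 0.49 among the genes called, and 150 of them reached 1. The median over all genes tested was 0.06. Without 51B/+ replicate 3, 611 genes (4.77% of 12815) were higher and 648 (5.06%) lower, and 444 and 510 of these were among the genes called with all libraries. The counts depended most on w, with 39 genes higher and 47 lower of 13432 without w replicate 3, and 22 and 21 of 13498 without w replicate 4. So few genes were called in those fits that a list without a call there need not have lost its difference. Without 1 library of 51B, V966M or V966M/+, 106 to 393 genes were higher and 75 to 361 lower. Each of the 1318 genes called had the same sign without either w library, which is no separate support, since the pairs left also made the calls. When all libraries were thinned to the depth of the shallowest, 514 of the 654 and 620 of the 664 genes were called again.

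The largest differences that were shared by all 5 strains involved a mixed set of RNAs. *CG42586* (FBgn0260954, 2L, 14741161 to 14741840, dm6), a gene without an assigned function, was counted at 49.4, 20.8, 35.5, 90.8 and 114 CPM in replicate 3. In replicate 4 it was at 1.94, 1.89, 8.27, 1.28 and 1.15 CPM. No replicate 4 library reached the lowest replicate 3 library, and the log2 fold change was 4.54 ± 0.85 (SE, adjusted p = 0.0629). The other 9 genes higher by the same rule were *pre-rRNA:CR45856*, *Muc96D*, *Sgs1*, FBgn0263039 (no symbol in the annotation used), *lncRNA:CR43314*, *mt:ND4*, *28SrRNA-Psi:CR45860*, *lncRNA:CR45809* and *lncRNA:roX1*, with log2 fold changes from 1.14 to 3.44. Among the 10 largest lower, 5 were midgut serine proteases (*Jon25Biii*, *Jon66Ci*, *Jon44E*, *epsilonTry* and *Jon66Cii*) and 2 encoded ribosomal proteins (*RpL23* and *RpS18*). *Ctr1B*, a copper transporter (log2 fold change -1.31 ± 0.34), *CG17571* (-1.23 ± 0.16) and *CG12824* (-1.07 ± 0.13) completed them.

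**Figure D1:**
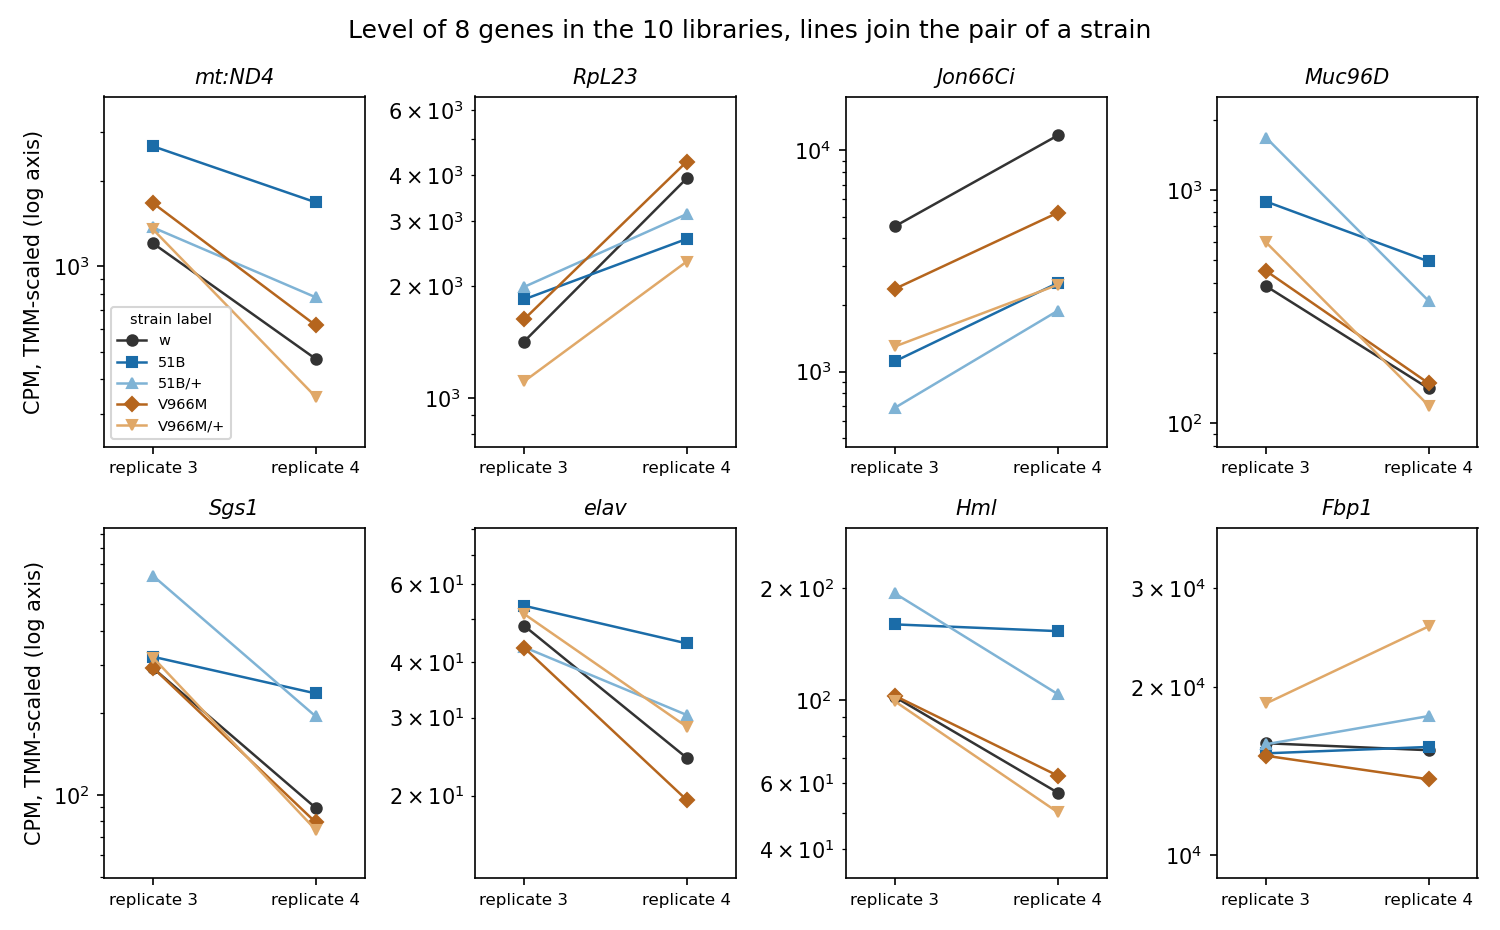
CPM (TMM-scaled, log axis) of 8 genes in the 10 libraries; each line joins replicate 3 and replicate 4 of a strain. The lines of mt:ND4, Muc96D, Sgs1, elav and Hml fall from replicate 3 to replicate 4 in all 5 strains and those of RpL23 and Jon66Ci rise in all 5, while those of Fbp1 go both ways.

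Mitochondria were considered in parts, since their own genome encodes some subunits of the respiratory chain, ribosomal RNAs and tRNAs, while most of their proteins come from the nucleus. The mitochondrial genome supplied 8.54%, 16.5%, 10.6%, 11.6% and 10.2% of the counts in replicate 3, and 7.94%, 11.6%, 7.29%, 7.04% and 5.57% in replicate 4. The share was higher in 5 of 5 strains, by 3.59 percentage points ± 1.79 (SD of the 5 differences), although the ranges of the replicate sets overlapped. The exact paired permutation test gave a two-sided p of 0.0625, the smallest that 5 pairs allow. Most of these counts were of *mt:lrRNA*, the large ribosomal RNA, which was higher in 4 of 5 strains and was not called (log2 fold change 0.53 ± 0.20, adjusted p = 0.157). Protein-coding mitochondrial genes alone took 2.40% ± 0.448 (SD, n = 5) in replicate 3 and 1.61% ± 0.832 (SD, n = 5) in replicate 4, higher in 4 of 5 strains (exact two-sided p = 0.125).

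**Figure D2:**
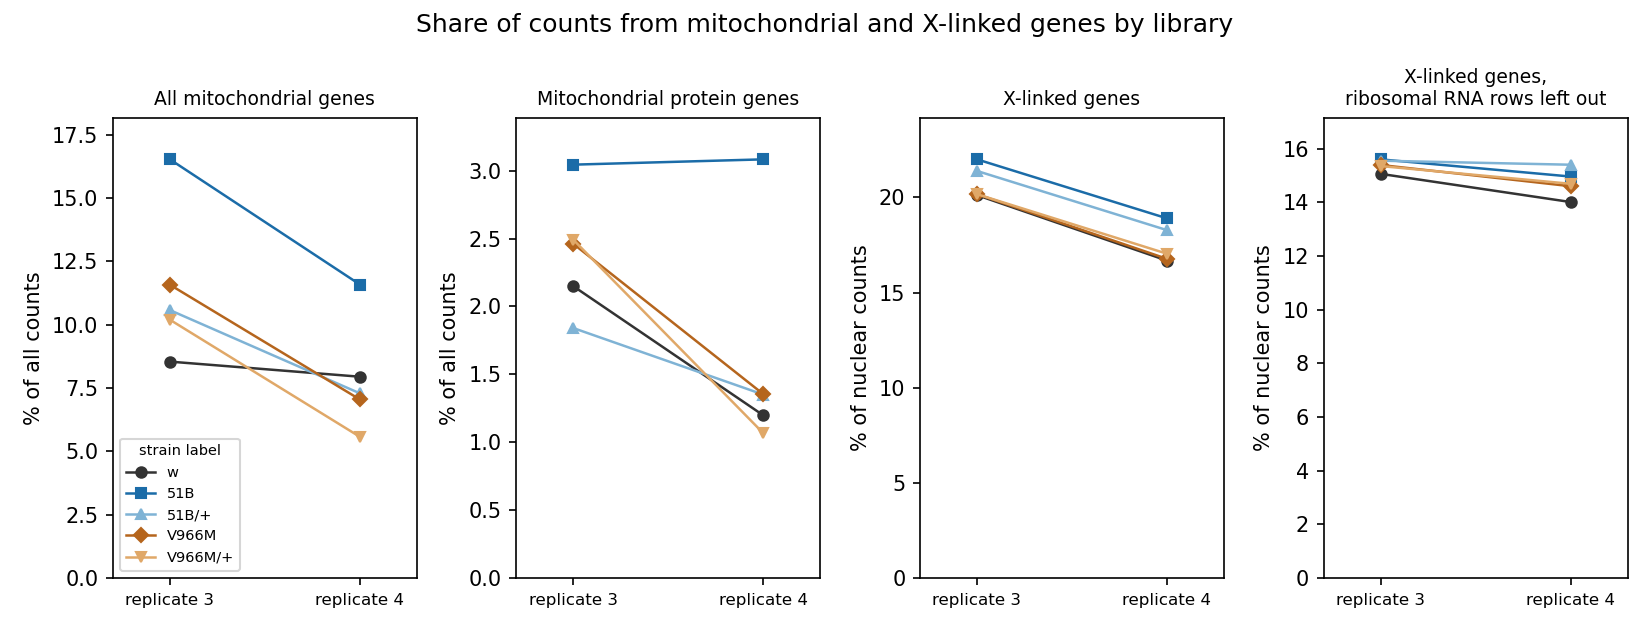
Share of counts (%, axis from 0) from mitochondrial genes, mitochondrial protein genes, X-linked genes and X-linked genes with ribosomal RNA rows left out, by library; lines join the pair of a strain. The share of all mitochondrial genes and both X-linked shares are higher in replicate 3 in all 5 strains, and the protein-gene share of 51B is level.

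Of the 37 mitochondrial genes, 28 passed the filter of 10 counts, 7 (25%) were called higher and 5 (17.9%) lower, beside 4.83% and 4.9% of all genes. *mt:ND4*, a subunit of complex I (8207 to 9545 of the mitochondrial genome, dm6), was at 1207, 2662, 1373, 1675 and 1352 CPM in replicate 3. It was at 471, 1686, 778, 619 and 345 CPM in replicate 4. Within every strain replicate 3 was the higher, but the 51B libraries were high under both numbers and the sets overlapped. The log2 fold change of *mt:ND4* was 1.25 ± 0.20 (SE, adjusted p = 0.0282). Other complex I subunits followed, *mt:ND1* with 0.97 ± 0.18 and *mt:ND4L* with 0.92 ± 0.14, the latter overlapping *mt:ND4* on the same strand. *mt:CoI* (0.87 ± 0.17), *mt:CoIII* (0.63 ± 0.18), *mt:ND5* (0.84 ± 0.24) and the small ribosomal RNA *mt:srRNA* (0.88 ± 0.11) were the other 4. All 5 genes called lower were tRNA genes. *mt:tRNA:Cys-GCA*, 62 bases long, was at 1, 0.355, 0.613, 0.992 and 0.0655 CPM in replicate 3 and at 4.64, 7.65, 2.67, 5.97 and 1.61 CPM in replicate 4, with no overlap (log2 fold change -2.93 ± 0.38, adjusted p = 0.0271). *mt:tRNA:Ala-TGC* (-1.87 ± 0.49) and *mt:tRNA:Ile-GAT* (-1.29 ± 0.22) went the same way, as did *mt:tRNA:Arg-TCG* (-2.02 ± 0.50) and *mt:tRNA:Lys-CTT*, which was at most 0.0342 CPM in replicate 3 and was highest in 51B of replicate 4, at 0.348 CPM. The median over the 28 genes was 0.02, but it ran from -0.05 without V966M/+ replicate 4 to 0.47 without 51B replicate 3. The calls were 6 higher and 4 lower without 51B/+ replicate 3, and 1 higher and 1 lower without either w library.

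Nuclear genes for mitochondria gave few calls with all libraries in the fit. Of 67 nuclear subunits of the respiratory chain, 1 was higher (1.49%) and 3 were lower (4.48%, near the 4.9% of all genes), with a median log2 fold change of -0.25 that became -0.12 in a fit that takes out each library's trend with gene length, and also without either V966M library. The medians by strain ran from -0.76 in V966M to 0.22 in V966M/+, so the strains differed in direction. *ND-19* (-0.66 ± 0.14), *UQCR-C2* (-0.65 ± 0.17) and *ND-30* (-0.53 ± 0.14), of complexes I and III, were lower, and *ND-AGGG* was higher (0.64 ± 0.19). *UQCR-C2* was at 198, 290.5, 269, 253 and 126 CPM in replicate 3 and at 397, 398, 329, 621 and 145 CPM in replicate 4. Each strain had less in replicate 3, by little in V966M/+ and by most in V966M. Mitochondrial ribosomal proteins gave 1 higher (1.43%) and 5 lower (7.14%) of 70, with a median of -0.22, and the median was -0.08 with the trend in length taken out and -0.10 without V966M replicate 4. With that trend taken out, 3 respiratory chain genes were higher and 3 lower, and 4 and 7 mitochondrial ribosomal protein genes. Among them *mRpL2* (-0.75 ± 0.15), *mRpL49* (-0.71 ± 0.13) and *mRpS18B* (-0.41 ± 0.11) were lower, with *mRpL22* and *mRpS29*, and *mRpL33* was higher (0.46 ± 0.11). Of 12 enzymes of the citric acid cycle, *ScsbetaG*, a subunit of succinyl-CoA synthetase, was lower (-0.38 ± 0.10) and none was higher. With 51B/+ replicate 3 left out, 14 of 70 mitochondrial ribosomal proteins were lower and none was higher. In that fit 3 of 67 respiratory chain genes were lower and no citric acid cycle gene was called, beside 4.77% higher and 5.06% lower of all genes. With either w library left out, none of the nuclear genes of these 3 lists was called.

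Cytoplasmic ribosomal proteins build the ribosomes of growing tissue, and a large share of their genes was lower. Of 80 tested, 22 were lower and none was higher, 27.5% against the 4.9% of all genes called lower. Their median log2 fold change was -0.28, and the median was below 0 in each of the 5 strains, from -0.64 in w to -0.07 in 51B/+. *RpL23* (FBgn0010078), which overlaps *inaD* on the other strand, was at 1419, 1845, 1994, 1630 and 1108 CPM in replicate 3 and at 3916, 2688, 3137, 4346 and 2335 CPM in replicate 4. The sets did not overlap, and the log2 fold change was -1.03 ± 0.17 (adjusted p = 0.0293). *RpS18* (-1.01 ± 0.17) and *RpS14b* (-0.81 ± 0.13) followed; *RpS14b* has a near-identical neighbouring copy, so its counts are uncertain. Leaving out 51B/+ replicate 3 gave 24 lower. Leaving out w replicate 3 or 4 gave none, where 47 and 21 of all genes were lower, and the list's median was -0.21 without w replicate 3.

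Ribosomal RNA is the bulk of total RNA, and mRNA protocols remove most of it; the study's methods name both poly(A) selection and ribosomal RNA depletion. Of 14 ribosomal RNA rows tested, 6 (42.9%) were higher and 2 (14.3%) lower, against 4.83% and 4.9% of all genes. *18SrRNA-Psi:CR41602* (FBgn0085813, X, 23211192 to 23213166, dm6), a pseudogene row of 18S ribosomal RNA, was at 14618, 20525, 17954, 16048 and 14175 CPM in replicate 3 and at 8149, 10511, 7185, 7273 and 5555 CPM in replicate 4. No libraries overlapped, and the log2 fold change was 1.12 ± 0.14 (adjusted p = 0.0229). Reads of this row could come from the many active ribosomal RNA copies. *pre-rRNA:CR45856*, the unprocessed precursor, was higher by 3.44 ± 0.66 (adjusted p = 0.0645) and *28SrRNA-Psi:CR45860* by 1.21 ± 0.30. The rows called lower were *5SrRNA:CR33367* and *5.8SrRNA-Psi:CR45857*. *5SrRNA:CR33367*, 135 bases long, was at 0.0437 to 0.329 CPM in replicate 3 and at 1.3 to 3.14 CPM in replicate 4 (log2 fold change -4.06 ± 0.35, adjusted p = 0.0198). Summed over all ribosomal RNA rows, replicate 3 held 44490 to 72970 CPM and replicate 4 held 20580 to 45480 CPM. Among 229 small nuclear and nucleolar RNAs, 15 (6.55%) were higher and 5 (2.18%) lower, beside 4.83% and 4.9% of all genes, and 11 and 6 without 51B/+ replicate 3. The U3 RNA *snoRNA:U3:9B* was lower (-3.15 ± 0.61). *His4r*, a histone gene with a poly(A) tail, was lower (-0.85 ± 0.19), and none of the 3 replication-dependent histone genes tested was called. Ribosomal RNA rows gave 5 higher and 3 lower without 51B/+ replicate 3, and 3 and 2, or 2 and 1, without w replicate 3 or 4. The part of RNA selection in any difference was not tested.

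X-linked genes took 20.1%, 22%, 21.4%, 20.2% and 20.2% of the nuclear counts in replicate 3, and 16.7%, 18.9%, 18.3%, 16.8% and 17% in replicate 4. The ranges did not overlap, and the share was higher in 5 of 5 strains by 3.23 percentage points ± 0.166 (SD of 5 differences, exact two-sided p = 0.0625, the smallest possible). Most of this came from 17 ribosomal RNA rows annotated on the X. Without the ribosomal RNA rows the difference was 0.656 points ± 0.325, still in 5 of 5 strains, and without the 100 most abundant genes it was 0.146 points ± 0.263, in 4 of 5 strains (exact two-sided p = 0.25). Fruit flies equalize X-linked dosage in males through the roX RNAs and the MSL complex, so X-linked genes were also read one by one. Of 2114 X-linked genes tested, 157 (7.43%) were higher and 165 (7.81%) were lower, against 4.29% and 4.31% of 11254 autosomal genes. Among protein-coding genes averaging 1 CPM or more, the median log2 fold change was -0.01 on the X and 0.01 on the autosomes, and their median summed exon length was 2436 and 2060.5 bases. The X-linked counts were 122 higher and 161 lower without 51B/+ replicate 3, 10 and 13 without w replicate 3, and 8 and 3 without w replicate 4.

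The X-linked genes with the largest shared differences included RNAs already named and genes of several functions. *lncRNA:roX1* (FBgn0019661, X, 3857230 to 3862697, dm6) was at 47.2, 30, 60.5, 27.5 and 33.7 CPM in replicate 3 and at 37.5, 19.7, 13, 10.5 and 14.6 CPM in replicate 4. Each strain had more in replicate 3, and the sets overlapped (log2 fold change 1.14 ± 0.28, adjusted p = 0.082). It overlaps *ec* on the other strand, and counting ignored strand. *futsch*, a microtubule-associated protein of neurons, was higher (1.08 ± 0.17, adjusted p = 0.0289). Lower were *CG13365* (-0.94 ± 0.23), *Syx16*, a syntaxin of vesicle fusion (-0.93 ± 0.10), *Ag5r2* (-0.92 ± 0.25), *CG5321* (-0.89 ± 0.12) and *O-fut2*, an O-fucosyltransferase (-0.82 ± 0.11). *Syx16* was even across strains, at 15.3 to 17.7 CPM in replicate 3 and 25.7 to 39 CPM in replicate 4.

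For developmental stage, the glue genes of the salivary gland were read first, because they come on late in the instar. *Sgs1* (FBgn0003372, 2L, 4937409 to 4941423, dm6) was at 292, 321, 635, 292 and 319 CPM in replicate 3 and at 89.5, 235, 194, 79.3 and 74.4 CPM in replicate 4. All replicate 3 libraries lay above all replicate 4 libraries, and the log2 fold change was 1.58 ± 0.23 (adjusted p = 0.0282). *Sgs3* (0.49 ± 0.13, adjusted p = 0.0718) and *Sgs4* (0.48 ± 0.13, adjusted p = 0.0752) were also higher in 5 of 5 strains. In all, 3 of the 7 glue genes (42.9%, against 4.83% of all genes) were called higher. The other 4 of the 7 glue genes were not called, and among those *Sgs8* had a log2 fold change of -0.61 ± 0.20 (adjusted p = 0.12) and *Sgs7* of -0.23 ± 0.22. The list's median was 0.06, the same as that of all genes. With the trend in gene length taken out, the list gave 3 higher and 1 lower, with a median of 0.20. When 51B/+ replicate 3 was left out, *Sgs1* was the 1 glue gene called higher (adjusted p = 0.0511) and *Sgs8* was called lower. None was called without either w library.

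Genes that answer ecdysone gave few calls with all libraries in the fit. Of 25 tested, 2 (8%) were higher and 1 (4%) was lower, beside 4.83% and 4.9% of all genes. The median was 0.27, and the strain medians were 0.417, 0.204, -0.415, 0.645 and 0.298. *br*, a transcription factor of the early response, was at 533, 636, 729.9, 644 and 1034 CPM in replicate 3 and at 379, 466, 566, 232 and 603 CPM in replicate 4. It was higher in 5 of 5 strains, with overlapping sets (log2 fold change 0.71 ± 0.17, adjusted p = 0.0616), and was not called with the trend in gene length taken out (0.36, adjusted p = 0.136). *ImpL2*, an imaginal disc protein that binds insulin-like peptides, was higher (0.34 ± 0.09), and *MsrA*, a methionine sulfoxide reductase, was lower (-0.53 ± 0.16, in 4 of 5 strains). *Eip78C* and *Hr4*, nuclear receptors of the ecdysone cascade that were picked after their values were seen, varied widely. *Eip78C* was at 98.3, 10.9, 14.2, 65.8 and 102 CPM in replicate 3 and at 37.2, 7.26, 75.9, 9.16 and 90.1 CPM in replicate 4. *Hr4* was at 57.5, 13.7, 14.3, 54.3 and 103 CPM in replicate 3 and at 23.8, 9.34, 64.5, 6.64 and 54.2 CPM in replicate 4. Both were high in w and V966M under number 3, in 51B/+ under number 4, in V966M/+ under both and in 51B under neither. Neither was called (adjusted p = 0.728 for *Eip78C* and 0.607 for *Hr4*). Without 51B/+ replicate 3, 6 of 25 ecdysone response genes were higher and none lower, against 4.77% and 5.06% of all genes. Their median was then 0.40, and leaving out either w library gave no call.

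**Figure D3:**
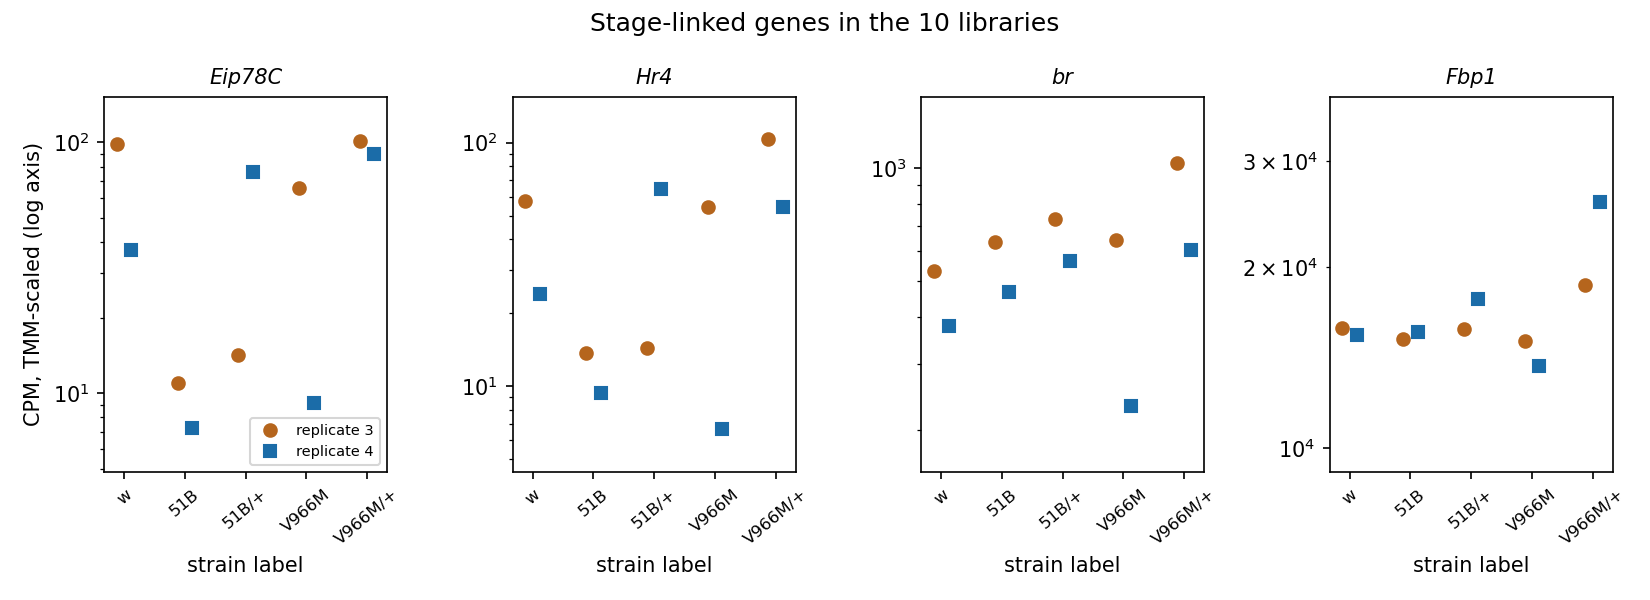
CPM (TMM-scaled, log axis) of 4 stage-linked genes in each strain, circles for replicate 3 and squares for replicate 4. Eip78C and Hr4 are high in different libraries of each number, br is higher in replicate 3 in all 5 strains, and Fbp1 lies between 13671 and 25644 CPM throughout.

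Other stage markers gave few calls. Among genes of ecdysteroid synthesis and turnover, *Npc1a*, a sterol transporter, was higher (0.44 ± 0.10) and *sro*, which acts in hormone synthesis, was lower (-0.45 ± 0.09). These were 2 of 21 tested (4.76% each way, beside 4.83% and 4.9% of all genes). The list gave 2 higher and 1 lower without 51B/+ replicate 3. None of 6 fat body storage protein genes was called. *Fbp1*, the receptor for storage proteins, was at 15858, 15212, 15793, 15062 and 18674 CPM in replicate 3 and at 15409, 15618, 17733, 13671 and 25644 CPM in replicate 4. The strains differed in direction, and the log2 fold change was -0.10 ± 0.15 (adjusted p = 0.735). *Lsp1beta*, a larval serum protein, gave 0.02 ± 0.19. Of 109 cuticle protein genes, 2 (1.83%) were higher, *TwdlT* (0.82 ± 0.13) and *Cpr12A* (0.73 ± 0.15), and 1 (0.917%) was lower, *Pcp* (-0.82 ± 0.22). None of the 7 Eig71E genes was called, and *Eig71Ee*, expressed in the late salivary gland, gave 0.30 ± 0.14 (adjusted p = 0.238). The cuticle list gave 3 higher and none lower without 51B/+ replicate 3, and 1 higher and none lower without either w library.

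Among feeding genes, the digestive proteases of the midgut were lower. Of 28 Jonah and trypsin genes, 11 were lower and none was higher, 39.3% against 4.9% of all genes. The median log2 fold change was -0.74, and the strain medians ran from -1.54 in 51B/+ to -0.26 in V966M/+. *Jon66Ci* (FBgn0035886, 3L, 8391540 to 8392377, dm6), a serine protease, was at 4540, 1114, 687, 2368 and 1300 CPM in replicate 3 and at 11682, 2515, 1884, 5225 and 2467 CPM in replicate 4. Replicate 4 was the higher in each strain, but w was far above the others under both numbers, and the sets overlapped. The log2 fold change was -1.21 ± 0.13 (adjusted p = 0.0198), and it was called without either w library (adjusted p = 0.0766 and 0.0705). *Jon25Biii* was at 2691, 659, 504, 1279 and 463 CPM in replicate 3 and at 6558, 2815, 2232, 3790 and 517 CPM in replicate 4 (-1.46 ± 0.29). Its V966M/+ pair was nearly level. *Jon44E* (-1.21 ± 0.22), *epsilonTry* (-1.16 ± 0.30) and *Jon66Cii* (-1.06 ± 0.12) were lower in 5 of 5 strains. Several of these genes are close paralogs in clusters, so reads could be divided among them. With 51B/+ replicate 3 left out, 9 of the 28 were lower and the median was -0.49, and with w replicate 3 or 4 left out, 3 or 2 were lower.

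Lysozymes and carbohydrases gave no call. The 7 lysozyme genes, which digest bacterial walls, had a median of -0.99, and none was called. *LysS* was at 423, 217, 83.9, 484 and 406 CPM in replicate 3 and at 856, 299, 403, 1036 and 451 CPM in replicate 4, lower in 5 of 5 strains (log2 fold change -0.99 ± 0.29, adjusted p = 0.109). *LysB* gave -1.16 ± 0.49 (adjusted p = 0.232). Leaving out 51B/+ replicate 3 gave *LysS* lower (-0.68, adjusted p = 0.0826). Of 13 amylases and maltases none was called, with *Amy-p* at -0.65 ± 0.32 and *Mal-A5* at -0.14 ± 0.12. The strain medians of this list ran from -1.72 in 51B/+ to 0.26 in 51B.

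Some secreted mucins were higher. Of 17 mucins and peritrophins tested, 4 (23.5%, against 4.83% of all genes) were higher and none was lower, with a median of 0.44 that was 0.25 without V966M replicate 3. With the trend in gene length taken out, 2 were higher. *Muc96D* (FBgn0051439, 3R, 25397788 to 25400645, dm6) was at 386, 891, 1675, 449 and 595 CPM in replicate 3 and at 141, 493, 334, 148 and 119 CPM in replicate 4. Each pair differed in the same direction while the sets overlapped through the 51B pair (log2 fold change 1.72 ± 0.23, adjusted p = 0.0271). It overlaps *Fur1* on the same strand. *Muc68Ca* (0.85 ± 0.19) and *Muc26B* (0.69 ± 0.11) were also higher in 5 of 5 strains, and *Muc11A* was the other gene called. The list again gave 4 higher and none lower without 51B/+ replicate 3, and it gave 3 and 0 higher without w replicate 3 and 4.

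Nutritional state, read from fat body and signalling genes, gave few calls. None of 20 lipid synthesis genes of the fed state was called, and the median was -0.01, while 2 were lower without 51B/+ replicate 3 (median -0.10). Of 19 genes raised by starvation, 2 (10.5%, against 4.83% of all genes) were higher, and 3 without 51B/+ replicate 3. *chrb*, an inhibitor of TOR signalling, was at 63.3 to 83.3 CPM in replicate 3 and at 34.9 to 68 CPM in replicate 4 (0.61 ± 0.12, adjusted p = 0.0407), and *InR*, the insulin receptor, gave 0.52 ± 0.12 (adjusted p = 0.0544). Neither was called without either w library, and *InR* was not called with the trend in gene length taken out (0.27, adjusted p = 0.104). None of 6 insulin-like peptide genes was called. *Ilp6*, made in the fat body, gave 0.12 ± 0.13, and *Ilp2*, made in the brain, gave -0.35 ± 0.13 (adjusted p = 0.152).

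Immune effectors gave no call and varied widely between libraries. None of 23 antimicrobial peptide genes was called, nor any of 13 bomanins and related secreted peptides, whose medians were 0.24 and 1.12. The antimicrobial peptide median was 0.06 without 51B/+ replicate 3 and -0.13 without w replicate 3. *DptA*, an Imd target, was at 8.47, 7.13, 156, 8.38 and 364 CPM in replicate 3 and at 1.77, 23.3, 18, 2.52 and 235 CPM in replicate 4. V966M/+ was high under both numbers and 51B/+ was high in replicate 3 (log2 fold change 1.24 ± 0.81, adjusted p = 0.419). *Bbd* gave 0.00 ± 0.24. *IM33*, by far the most counted of the bomanin list, was at 318, 934, 1669, 707 and 309.8 CPM in replicate 3 and at 691, 944, 1176, 1401 and 89.7 CPM in replicate 4 (0.01 ± 0.46). The most counted of the other 12 genes of that list averaged 1.2 CPM, and all 12 were under 10 CPM in every library. The list's median of 1.12 therefore comes mostly from genes at low levels. Summed, antimicrobial peptides ran from 112.9 to 1022 CPM in replicate 3 and from 127 to 959.9 CPM in replicate 4. The bomanin median was 0.71 without 51B/+ replicate 3, again with no call.

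Hemocytes are the phagocytes of the larva, and 4 of 26 hemocyte and melanization genes (15.4%, against 4.83% of all genes) were higher, with none lower. *Hml* (FBgn0029167, 3L, 13846054 to 13860001, dm6), a clotting protein of plasmatocytes, was at 102, 159.8, 193, 103 and 99.3 CPM in replicate 3 and at 56.6, 153, 104, 62.8 and 50.1 CPM in replicate 4. The 51B pair was nearly level and the other 4 differed more (log2 fold change 0.70 ± 0.14, adjusted p = 0.0407). The scavenger receptor *Sr-CI* (0.69 ± 0.12) and the phagocytosis receptors *eater* (0.65 ± 0.13) and *NimC1* (0.56 ± 0.11) were higher in 5 of 5 strains. The crystal cell gene *PPO1* had 1.02 ± 0.34 (adjusted p = 0.152), and the list median was 0.04. Of 13 peptidoglycan recognition proteins *PGRP-SD* was lower (-0.38 ± 0.11), and of 21 Toll and Imd pathway genes *pll*, the kinase of the Toll pathway, was lower (-0.34 ± 0.08). These were 7.69% and 4.76% of the genes tested in their lists, near the 4.9% of all genes called lower. Leaving out 51B/+ replicate 3 again gave 4 hemocyte genes higher and 1 gene lower in each of the other 2 lists, and leaving out either w library gave none in these 3 lists.

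**Figure D4:**
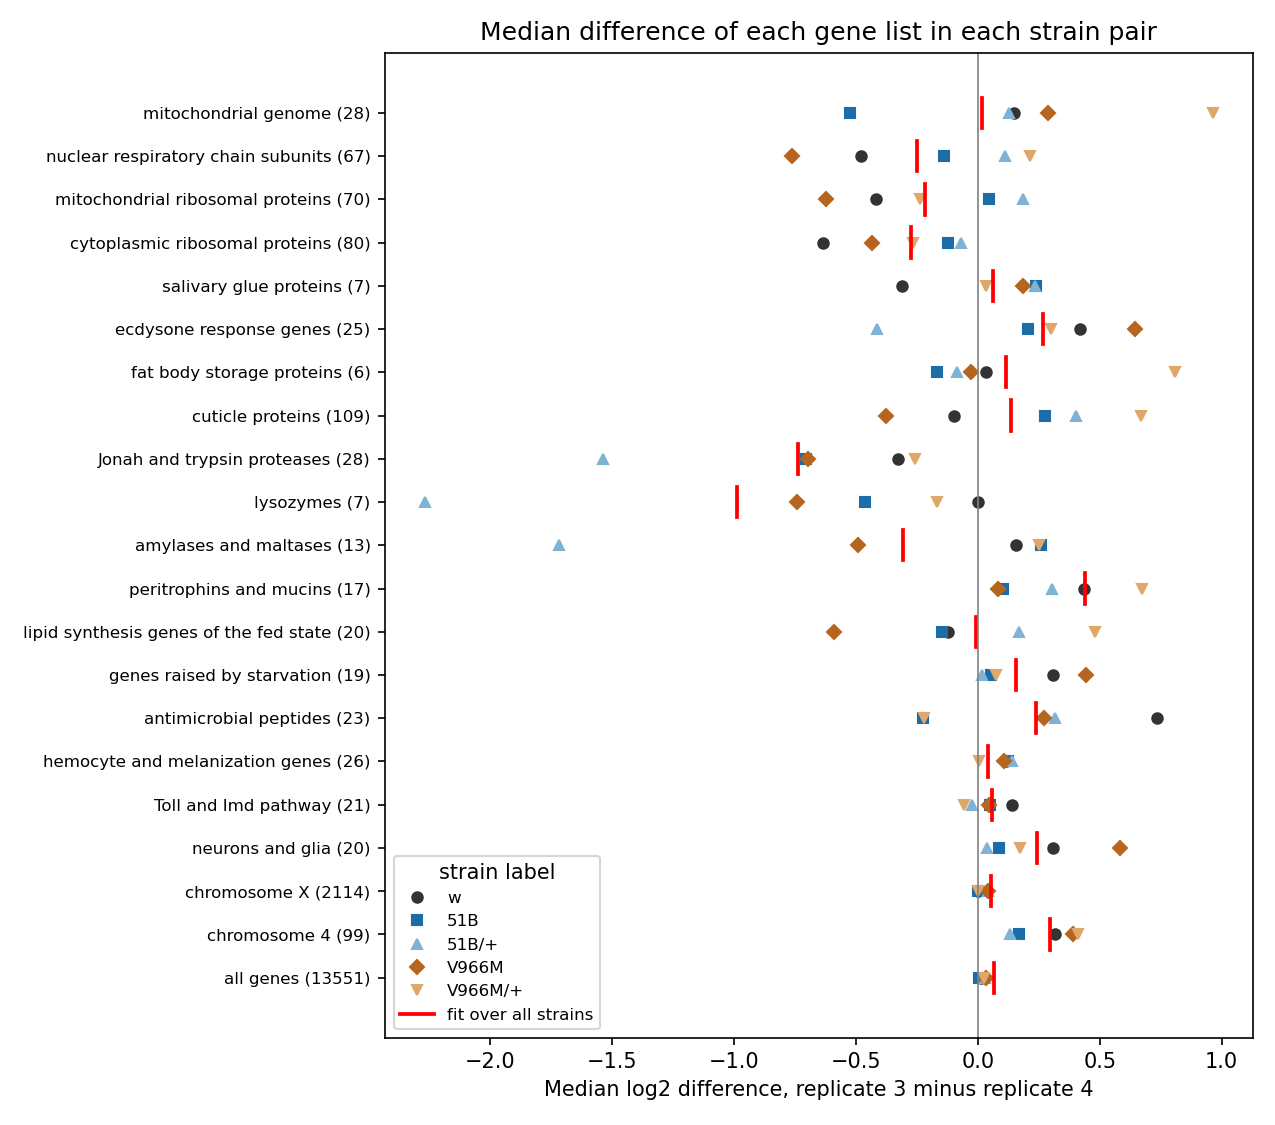
Median log2 difference (replicate 3 minus replicate 4) of each gene list in each strain pair (symbols) and in the fit over all strains (red bars); the number of genes tested is in parentheses. The 5 symbols of the Jonah and trypsin proteases and of the cytoplasmic ribosomal proteins lie below 0 and those of the mucins, starvation genes, hemocyte genes, neuron genes and chromosome 4 above 0, while the lysozymes have w at 0 and most other lists have symbols on both sides.

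Few stress and detoxification genes were called. Of 7 Turandot genes none was called, with *TotA* at -0.03 ± 0.12. Of 18 heat shock protein genes 1 (5.56%) was lower, *Hsp70Ba*, at a low level and in 4 of 5 strains (-1.61 ± 0.39, 0.415 to 7.05 CPM over all libraries). It belongs to a family of near-identical copies. *GstE12* (-0.49 ± 0.11) and *GstE11* (-0.47 ± 0.10) were lower among 35 glutathione transferases (5.71%, near the 4.9% of all genes). *Cyp6a14* (-0.82 ± 0.19), *Cyp4d1* (-0.59 ± 0.11) and *Cyp6g2* (-0.51 ± 0.14) were lower among 82 cytochromes P450 (3.66%). None of these lists had a gene called higher. Without 51B/+ replicate 3, 3 P450 genes were higher and 3 lower, 3 glutathione transferase genes were lower and 1 heat shock gene was lower. The clock-linked factor *Pdp1* was higher (0.81 ± 0.12), 1 of 10 clock genes (10%, beside 4.83% of all genes), while the median of the list was -0.08. Without either w library, 1 heat shock gene was lower and no gene of the glutathione transferase and P450 lists was called.

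Growth and other tissues were read last. Over all genes tested, 4.83% were higher and 4.9% lower. Of 34 genes of the cell cycle and DNA replication, 2 (5.88%) were higher, *stg*, the Cdc25 phosphatase (0.54 ± 0.13), and *Claspin* (0.50 ± 0.13, in 4 of 5 strains). Another 4 (11.8%) were lower, *Incenp* (-0.32 ± 0.07), *dpa* (-0.31 ± 0.09) and *Mcm5* (-0.30 ± 0.07), with *RnrS*. Of 24 body wall muscle genes, 1 (4.17%) was higher, *Msp300* (0.61 ± 0.15, but 0.04 with adjusted p = 0.883 with the trend in gene length taken out). In the same list 3 (12.5%) were lower, *Act88F*, an actin of adult flight muscle (-1.80 ± 0.18, 0.503 to 8.8 CPM over all libraries), *Act79B* and *tn* (-0.41 ± 0.12). Of 20 neuron and glia genes, 5 (25%, against 4.83% of all genes) were higher and none lower. *elav* (FBgn0260400, X, 509235 to 523226, dm6), an RNA-binding protein of neurons, was at 48.4, 53.7, 43.3, 43.2 and 51.5 CPM in replicate 3 and at 24.3, 44.1, 30.4, 19.6 and 28.6 CPM in replicate 4 (0.75 ± 0.13, adjusted p = 0.0313). Only the 51B library of replicate 4 reached the range of replicate 3. *nrv3* (0.64 ± 0.08) and *Rdl* (0.63 ± 0.16) followed with *fne* and *Syx1A*, while *nSyb* (0.09 ± 0.09) and *Syt1* (-0.18 ± 0.10) were not called. Of 20 female germline genes 1 (5%) was higher, *bru1* (0.39 ± 0.10). Of 39 testis genes 8 (20.5%) were higher and 1 (2.56%) lower with all libraries. Without 51B/+ replicate 3, only 26 testis genes passed the count filter, and none was called. The rest were tested only through that library, so the 20.5% depends on it and cannot be set beside the share of all genes. Among the testis genes called with all libraries, *bol* (0.50 ± 0.15) was the 1 gene higher that averaged over 1 CPM, and *Mst87F* was the 1 lower (-0.55 ± 0.15). The neuron list gave 4 higher, the muscle list 2 lower and the cell cycle list 3 higher and 3 lower without 51B/+ replicate 3. Without either w library, 1 neuron gene was higher and 1 muscle gene lower, and no gene of the cell cycle or germline lists was called.

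Gene length moved with the difference. Over 9308 protein-coding genes averaging 1 CPM or more, 2.93% of the 1229 genes with more than 500 and up to 1000 bases of exon were higher and 10.4% were lower. Of the 453 genes with more than 8000 bases, 21.9% were higher and 0.442% were lower. The medians of these classes ran from -0.28 to 0.36 in w and from -0.34 to 0.51 in V966M. In 51B they ran from 0.07 to -0.07, the opposite direction, and in 51B/+ from 0.04 to 0.14. Across genes, Spearman's rho between length and difference was highest in V966M (0.52), followed by w (0.47), V966M/+ (0.18), 51B/+ (-0.05) and 51B (-0.13), as a description over genes that share libraries. Ribosomal proteins (median 909.5 bases), the proteases (903.5 bases) and mitochondrial ribosomal proteins (783 bases) are short, and the neuron genes (5243 bases) are long. A fit that takes out each library's trend with length called 1080 genes higher (7.97%) and 832 lower (6.14%), among them 562 of the 654 and 577 of the 664. Under it 26 ribosomal protein genes were lower and 1 was higher, 8 proteases were lower, 4 hemocyte genes, 3 neuron genes and 2 mucins were higher, and the mitochondrial genome gave 9 higher and 4 lower. Of the named genes called, *mt:tRNA:Ala-TGC*, *mRpS18B*, *ScsbetaG*, *lncRNA:roX1*, *Ag5r2*, *br*, *MsrA*, *Pcp*, *epsilonTry*, *Ctr1B*, *Muc68Ca*, *InR*, *PGRP-SD*, *Msp300*, *Rdl*, *bru1*, *bol*, *apolpp* and *Mst87F* were not called under it. Those not called without 51B/+ replicate 3 were *AGO2*, *mt:tRNA:Ala-TGC*, *mt:CoIII*, *ND-AGGG*, *mRpL33*, *ScsbetaG*, *Sgs3*, *Sgs4*, *MsrA*, *Pcp*, *Ctr1B*, *Hsp70Ba*, *Cyp6g2*, *Msp300*, *dpa*, *bol* and *Mst87F*.

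**Figure D5:**
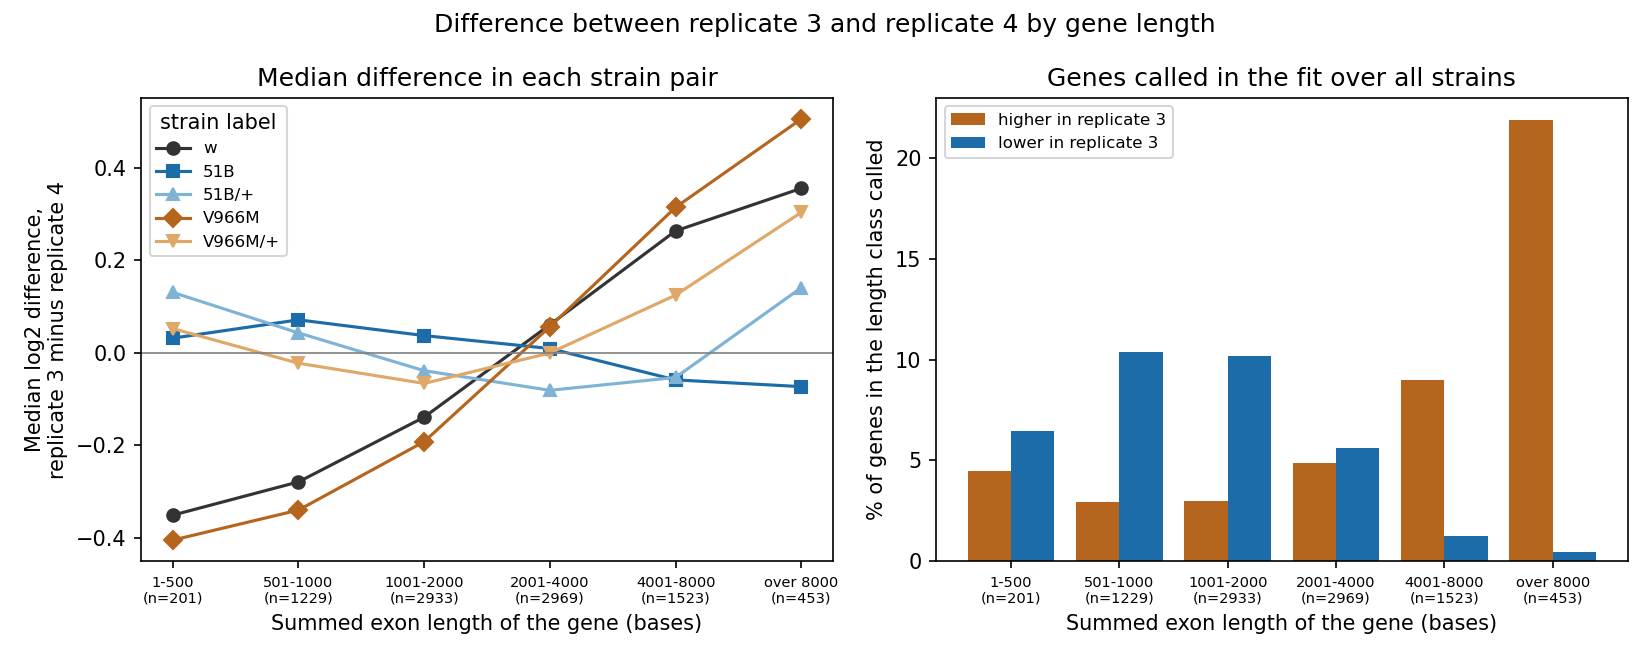
Left, median log2 difference (replicate 3 minus replicate 4) by class of summed exon length (bases) in each strain pair; right, percent of the genes in each class called higher or lower in the fit over all strains. The w and V966M lines rise with length, the 51B line does not, and 21.9% of genes over 8000 bases are called higher.

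The strains were compared last. Over 9656 genes averaging 1 CPM or more, the differences of w and V966M correlated with r = 0.599, those of w and 51B/+ with -0.03, and those of the other 8 strain pairs with 0.07 to 0.32, as a description across genes. The number effect in the 51B strains was tested against that in the V966M strains with an interaction term. No gene was called by edgeR (765 at an unadjusted p under 0.05 of 13551), the smallest adjusted p was 0.814, and DESeq2 called 15 genes. *CG42586* was among the 15 (DESeq2 adjusted p = 4.9e-06, edgeR 0.814). Its log2 difference was 3.45 and 2.10 in 51B and 51B/+, and 6.13 and 6.61 in V966M and V966M/+.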

How the data were processed

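The authors' processing, from the study's methods and the submitters' processing notes, trimmed single-end reads with cutadapt 1.10, aligned them to dm6 with HISAT2 2.0.4 and counted exonic reads per gene with featureCounts 1.5.0-p3 without regard to strand. The deposited values are raw counts, neither normalized nor pooled. The methods name both poly(A) selection and ribosomal RNA depletion for larvae, and which was used for each library is not given in the sources used here. All 17402 genes and 10 columns were read; 17210 genes had a symbol and coordinates in an Ensembl annotation of the same assembly, and 11 of 342 listed symbols were not matched.

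Genes with at least 10 counts over the 10 libraries were tested with edgeR 4.0.16 in R 4.3.3 (TMM, robust glmQLFit, glmQLFTest) on strain plus replicate number, with a Benjamini-Hochberg adjusted p under 0.1 as the call. Each number after ± beside a log2 fold change is a standard error (SE), the fold change divided by the root of its F. Differences within a strain are of log2 CPM with a prior count of 0.5. A count of 0 allows 3 counts, 0.0493 to 0.134 CPM by library, for counting error only. The shares were tested by exact permutation over the 5 pairs, two-sided. Strain pairs the libraries: both libraries of a strain deviated together (r = 0.349 to 0.766 over 9656 genes).

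The replicates, lists, tests and alternatives were chosen with earlier results of these data known. Lists are described by counts of calls and medians, with no test of their own. Genes named were *AGO2*, up to 10 per direction with the largest change at a mean of at least 5 CPM and the same sign in 5 strains, up to 3 per direction and list with a mean of at least 1 CPM (or, with none called, up to 2 of the most abundant), and up to 5 X-linked genes per direction. *mt:CoI*, *mt:CoIII*, *mt:ND5*, *mt:srRNA*, *mt:lrRNA*, *Sgs7*, *Sgs8*, *Eip78C*, *Hr4*, *NimC1*, *PPO1*, *nSyb*, *Syt1*, *lncRNA:roX2*, *mt:tRNA:Arg-TCG*, *mt:tRNA:Lys-CTT*, *ple*, *Drsl5* and the chromosome 4 genes were added after their values were seen, as were genes named without values to complete a count. The test was checked on simulated data. Alternatives were DESeq2 1.42.0, other scalings, filters, priors and thresholds, thinned counts, no strain block and each library left out. A fit with the trend in length taken out (lowess, span 0.3) and the X-linked share without ribosomal RNA rows were added after the data were seen.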

Additional observations from a re-analysis of the deposited data

Results flagged for a closer look

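In 44 sets of 5 libraries, 1 set per number for the 20 largest shared differences and both shares, 5 held a library set apart from the other 4 by Dixon's criterion. Chance gives about 1 in 20 for like libraries, but each set holds 5 strains, so that rate may not apply. *Sgs1* was at 635 CPM in 51B/+ replicate 3, and the next library of replicate 3 was at 320.7 CPM. *CG42586* was at 8.27 CPM in 51B/+ replicate 4, and the next was at 1.94 CPM. *pre-rRNA:CR45856* was at 24.2 CPM in 51B replicate 4, and the next was at 2.76 CPM. *lncRNA:CR45809* was at 20 CPM in V966M/+ replicate 4, and the next was at 4.82 CPM. V966M/+ was also the highest in replicate 3, at 42.7 CPM. *Jon66Cii* was at 1025 CPM in w replicate 4, and the next was at 391 CPM. In replicate 3, w was also the highest, at 539 CPM.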

How the results depend on the processing

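All 1318 genes called kept their sign wherever an alternative gave a value, which is no separate support, since the alternatives use the same libraries. Counts of genes higher and lower were 96 and 162 with no replicate block (strain, which pairs the libraries, left out of the fit), 234 and 250 at an adjusted p under 0.05, 109 and 41 with an added minimum of 1 for the absolute log2 change, and 1080 and 832 with the trend in length taken out, an alternative chosen after the data were seen. RLE factors, normalization without mitochondrial genes, DESeq2, both other filters and thinning kept both counts within 1.5 times. Leaving out a library gave 22 to 611 higher and 21 to 656 lower, lowest without w and, next, without V966M (106 and 75 without its replicate 3); under the strain block a library left out removes its pair. The prior count moved the counts shared by 5 strains from 576 and 635 to 575 and 635. The mitochondrial share differed by 3.26 to 4.34 points and the X-linked share by 3.19 to 3.27 with a library left out. Without the paired block the X-linked difference of 3.23 points had an exact p of 0.00794, and the mitochondrial 0.0635. The interaction gave 0 genes with edgeR and 15 with DESeq2. Of the 96 named genes called, 18 or 23 were called without a w library, 77 with the trend in length taken out and 20 with no replicate block, all with the same sign. Of named genes not called, 8 changed sign. *Bbd* was at -0.0054 without mitochondrial genes in the scaling, -0.016 thinned, -0.20 with no replicate block and -0.17 to 0.21 with a library left out. *IM33* was at -0.0073 thinned, -0.13 with no replicate block and -0.42 to 0.31 with a library left out. *Lsp1beta* was at -0.061 with no replicate block and -0.18 to 0.11 with a library left out. *TotA* was at 0.10 with the trend in length taken out and -0.13 to 0.046 with a library left out. *lncRNA:roX2* was at -0.16 with no replicate block. With a library left out, *lncRNA:roX2* ran from -0.90 to 1.67, *Sgs7* from -0.35 to 0.013, *ple* from -0.15 to 1.67 and *Drsl5* from -0.82 to 1.85. Causes were not tested. Depth limits genes near the floor.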

Other observations

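Chromosome 4, a small and largely heterochromatic chromosome, was not part of the question and stood out when chromosomes were counted. Of its 99 genes tested, 23 (23.2%) were higher in replicate 3 and 1 was lower, beside 4.83% and 4.9% of all genes, and its median log2 fold change was 0.29. The medians of its 71 protein-coding genes with at least 1 CPM were 0.34, 0.17, 0.12, 0.43 and 0.44 in w, 51B, 51B/+, V966M and V966M/+. *apolpp*, the lipoprotein of the hemolymph, was at 2958, 4505, 4571, 3644 and 3090 CPM in replicate 3 and at 1901, 4015, 3536, 2313 and 1282 CPM in replicate 4 (log2 fold change 0.62 ± 0.17, edgeR adjusted p = 0.084). *eIF4G1*, a translation initiation factor (0.52 ± 0.11), and *CG31999* (0.46 ± 0.08) were higher in 5 of 5 strains. Genes of chromosome 4 are long, with a median of 4514 bases of exon for the 71 genes. With the trend in length taken out, 28 genes were higher and 1 lower, without 51B/+ replicate 3 the counts were also 28 and 1, and without either w library none was called.

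The libraries with high *Eip78C* and *Hr4* also held high levels of 2 genes of other lists. *ple*, the tyrosine hydroxylase of dopamine and cuticle synthesis, was at 582, 20.4, 14.7, 319.7 and 222 CPM in replicate 3 and at 86.2, 18.9, 193, 18.4 and 251 CPM in replicate 4. *Drsl5*, of the antimicrobial peptide list, was at 125, 0.355, 0.329, 71.4 and 51.8 CPM in replicate 3 and at 28.8, 0.298, 54.8, 2.74 and 75.3 CPM in replicate 4. In all 4 genes the w, V966M and V966M/+ libraries of replicate 3 and the 51B/+ and V966M/+ libraries of replicate 4 were the 5 highest. These genes were chosen after their values were seen, and no further test was made.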
